A study of Bos taurus with 6 samples.

Results

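The predicted miRNAs of 22 nt or longer in cow milk extracellular vesicles (EVs) were 63 of the 779 sequences of the count table. They were chosen by 2 properties of each row, a name given by the prediction and a listed length of at least 22 nt. The choice used no count, although the prediction itself had been made from sequenced reads. The table held 503 predicted sequences in all, of which 209 were 18 nt and 231 were 19 to 21 nt, and 276 known miRNAs with a Bos taurus name (bta-). Milk came from 6 Holstein cows in mid lactation, kept in climate chambers under the same temperature and humidity. The control diet, a total mixed ration (TMR), was fed to 3 cows, and the other 3 had a replacement diet whose alfalfa hay had partly given way to whole cotton seed and soybean hull. Small RNA was sequenced from EVs that a precipitation kit had isolated from milk, so each value below describes the reads of 1 cow's EV preparation. Fewer vesicles and less RNA per vesicle cannot be told apart in such samples.

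EVs are small membrane-bound particles that cells release, and those of milk carry small RNA from the mammary epithelium and from other cells shed into milk. An animal miRNA is cut from a hairpin transcript by Drosha and Dicer, and the resulting duplex has a short overhang at the 3′ end of each strand. Argonaute loads 1 strand (mature) and the other (star) is mostly lost, and Argonaute favours strands that begin with U or A. The seed, bases 2 to 8 of the mature strand, pairs with target mRNAs and groups miRNAs into families. A predicted miRNA is a sequence that a program such as miRDeep2 placed in a candidate hairpin of the genome and that has no entry of its own in miRBase. The deposited names do not say which hairpin each sequence came from, and no genome position is given here.

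The 4 predicted miRNAs of this length that had counts in all 6 cows are shown first, because most of the values below turn on them. Sequences are written 5′ to 3′ with T for U, as deposited, and capitals mark the seed.
novel387_mature: aGAATTCCatggacagaggagcc
novel12_mature: gGGCGGGCgggcggggccgggc
novel153_mature: aGAAGAGAagaaaaagcctgcac
novel18_mature: gGGGGTGTggctcagtggtagagtg
The row of novel18_mature carried a second predicted name, novel363_mature. The next 4 sequences are shown because they had the clearest cow-to-cow patterns of those missing from some cows.
novel224_mature: aGAGGAGGgggagcggcagagc
novel130_mature: aGAGGGGCcagagcccagggagcc
novel79_mature: tGAAATGTttaggaccactaga
novel54_mature: aAAAATGCggattccatggcttca
Of these 8 sequences, novel12_mature is made of G and C alone (GC content 100%), whereas novel79_mature has a GC content of 36.4% and novel153_mature one of 43.5%. Each of the 63 sequences was distinct, and so was each of their seeds, so no pair of them belonged to the same seed family. The 63 rows carried 69 predicted names, since 4 rows had several, and 2 of the rows were star strands.

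These sequences were rare in the milk EVs. They received 1822 counts over the 6 cows, which was 0.0814% of all miRNA counts. By cow they received 305, 281 and 315 counts on the control diet and 258, 293 and 370 on the replacement diet. As a share of all miRNA counts this was 0.0928% (95% Wilson interval 0.0830 to 0.104), 0.0505% (0.0449 to 0.0568) and 0.0812% (0.0728 to 0.0907) in control cows 1 to 3. The corresponding shares in replacement cows 1 to 3 were 0.0613% (0.0542 to 0.0692), 0.107% (0.0955 to 0.120) and 0.137% (0.123 to 0.151). The lowest shares were those of control cow 2 and replacement cow 1, and the diets overlapped, with 0.0749% ± 0.0219 (SD, n = 3) on the control diet and 0.102% ± 0.0379 on the replacement diet. The direction depended on the total, since as a share of the counts of known miRNAs plus the 63 the means were 0.372% ± 0.177 on the control diet and 0.326% ± 0.192 on the replacement diet (SD, n = 3 each), again with overlap. In RPM, the deposited scale on which a cow's count is divided by a fixed total of reads for that cow, the summed level was 23.3, 22.3 and 25.3 in control cows 1 to 3 and 19.3, 24.2 and 29.3 in replacement cows 1 to 3. The means were 23.7 ± 1.54 and 24.3 ± 5.02 RPM (SD, n = 3 each), a difference smaller than the SD of the replacement cows. Intervals cover the counting error of reads only and leave out differences between cows. PCR copies without molecular identifiers are not independent molecules, so the intervals may be too narrow even for counting error.

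Few sequences held most of these counts. The 4 with the most counts, novel387_mature (409 counts), novel12_mature (280), novel153_mature (205) and novel224_mature (111), held 55.2% of the counts, and they were the only ones of at least 100 counts. At the other end, 12 sequences had at most 3 counts in all 6 cows together and 5 had a single count. The median sequence had 10 counts, against 20 for predicted sequences of 19 to 21 nt, 34 for those of 18 nt and 67 for known miRNAs. The highest of the 63, novel387_mature, ranked 123rd of the 779 sequences by mean RPM (5.41 ± 1.74, SD, n = 6). A single 18-nt predicted sequence had 1114983 counts. By length, the 27 sequences of 22 nt held 833 counts, the 16 of 23 nt 779, the 9 of 24 nt 133 and the 11 of 25 nt 77, with medians of 11, 9, 8 and 4 counts. The most abundant of 25 nt were novel18_mature (30 counts), novel387_star (18) and novel488_mature (8, all in control cow 2).

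**Figure D1:**
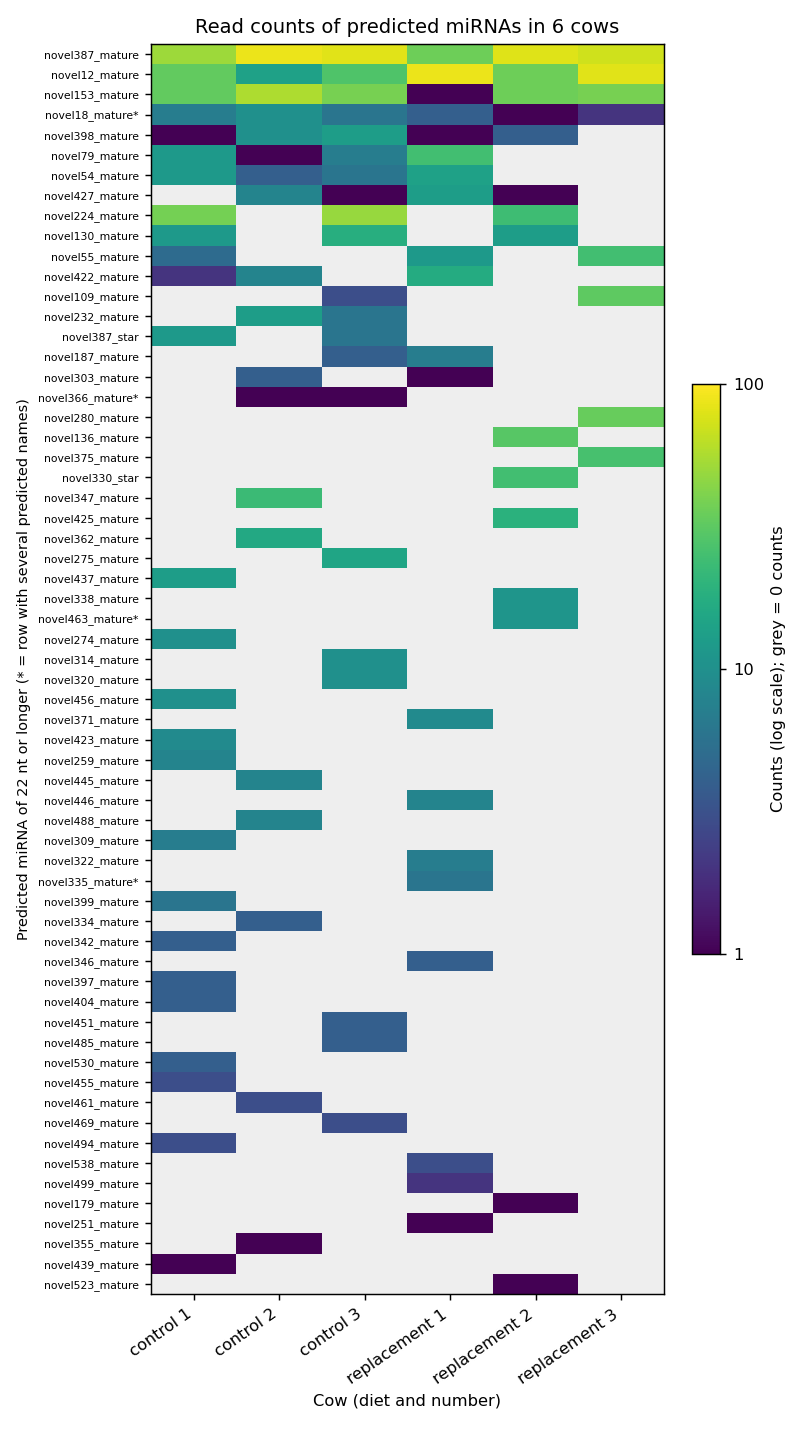
Deposited read counts of the predicted miRNAs of 22 nt or longer, all but 1 of the 63 (rows, ordered by the number of cows and then by total counts) in each of the 6 cows (columns), on a log colour scale with 0 in grey; an asterisk marks a row that carries several predicted names. The top 4 rows are filled in every cow, and 44 rows have a single coloured cell.

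Most of these sequences were seen in 1 cow. Of the 63, 44 (69.8%) had counts in 1 cow, 7 in 2, 4 in 3, 3 in 4, 1 in 5 and 4 (6.35%) in all 6. The share seen in 1 cow was 29.3% for known miRNAs, 42.6% for predicted sequences of 18 nt and 51.5% for those of 19 to 21 nt. The share seen in all cows was 37.3%, 21.1% and 17.7% in the same order. These sets also differed in abundance, as the medians above show, and a rare sequence reaches fewer cows at a given depth, so the part of abundance in this order was not tested. A count of 0 allows up to 3 counts, which is 0.224 to 0.247 RPM depending on the cow.

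The sequences seen in 1 cow held 393 counts, 21.6% of the total, with a median of 7 and a highest value of 34. Of the 44, 11 had 1 to 3 counts, at or under the limit that a count of 0 allows in another cow, and 11 had more than 10 counts. The highest were novel280_mature with 34 counts in replacement cow 3, novel136_mature with 30 in replacement cow 2, novel375_mature with 26 in replacement cow 3, novel330_star with 25 in replacement cow 2 and novel347_mature with 23 in control cow 2. Each of these 5 had 0 counts in each of the other 5 cows, a gap wider than the limit of 3 counts.
novel280_mature: aGAAGGCCaaggatagaggagc
novel136_mature: cGGGCCGGgcacctgagctggc
novel375_mature: aGAAGAGGgtgagccaggggcc
novel347_mature: aGAGGGCCtggggagctggggg
These 4 are shown as the most abundant mature sequences of a single cow. None of them had a known miRNA's seed, and 3 of the 4 began with AGA.

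**Figure D2:**
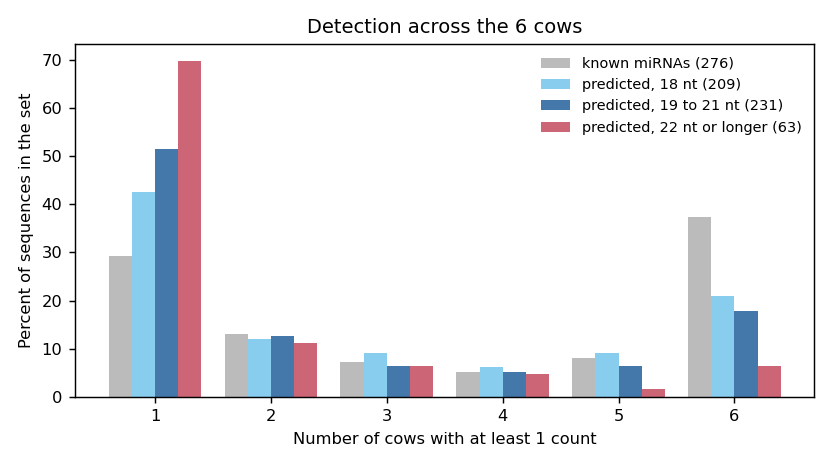
Percent of the sequences in each set (y axis) by the number of cows with at least 1 count (x axis), for known miRNAs and for predicted sequences of 18 nt, 19 to 21 nt and 22 nt or longer. The longest set has the highest bar at 1 cow (69.8%) and the lowest at 6 cows (6.35%).

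The number of these sequences detected was 27, 19 and 21 in control cows 1 to 3 and 20, 15 and 9 in replacement cows 1 to 3. Replacement cow 3 had the fewest sequences and the most counts (9 sequences, 370 counts), and control cow 1 the most sequences. The sequences found in no other cow were 14, 7 and 6 in control cows 1 to 3 and 8, 7 and 2 in replacement cows 1 to 3. Between diets, 30 were seen in control cows alone, 17 in replacement cows alone and 16 in both. Of all 779 sequences, 249 (32.0%) were seen in control cows alone and 142 (18.2%) in replacement cows alone, so the lean to the control side was shared by the whole table. The known miRNAs detected were also fewest in replacement cows 2 and 3, with 174, 183 and 181 in control cows 1 to 3 and 176, 141 and 142 in replacement cows 1 to 3. The total of all miRNA counts was lowest in the same 2 cows (273652 and 271061 against 328527 to 556489 in the other 4). The read totals that underlie RPM were closer together, with 12130660 and 12611162 in these 2 cows and 12427878 to 13369168 in the other 4. The part of either total in the number detected was not tested.

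Presence in at least 2 cows of a diet and absence from the other was found for 3 of the 63 (4.76%), all on the control side. Over the whole table it was found on the control side for 33 of 779 sequences (4.24%), about the same share, and on the replacement side for 25 (3.21%). The counts in control cows 1, 2 and 3 were 0, 13 and 6 for novel232_mature, 0, 1 and 1 for novel366_mature, whose row is also named novel384_mature, and 12, 0 and 6 for novel387_star. None of the 3 was present in all 3 control cows, and the counts of novel366_mature lie under the limit of 3.

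Some sequences shared the same set of cows. Both novel224_mature (38, 0 and 49 counts in control cows 1 to 3 and 0, 24 and 0 in replacement cows 1 to 3) and novel130_mature (12, 0 and 18, then 0, 13 and 0) were seen in control cows 1 and 3 and replacement cow 2 and nowhere else. Of the 779 sequences of the table, 7 had this set of cows and 0 of the 7 were known miRNAs. Both sequences begin with AGAGG, and both had their highest count in control cow 3.

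A second set of cows, the 3 control cows and replacement cow 1, held novel79_mature (12, 1 and 7 counts, then 25 in replacement cow 1) and novel54_mature (12, 4 and 6, then 14). Of the 14 sequences of the table with this set, 7 were known miRNAs. By general knowledge novel79_mature reads like the mature miR-203 of mammals, an miRNA of epithelia, but begins 1 base further in. This likeness was not checked against a sequence file. It was 1 of only 4 of the 63 that began with U, and it was the most abundant of those.

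The 63 sequences differed from the known miRNAs in their first base. A was first in 30 (47.6%), G in 19 (30.2%), C in 10 (15.9%) and U in 4 (6.35%). Of the known miRNAs 48.6% began with U, 29.7% with A and 8.33% with G. The shorter predicted sequences were low in U as well, with 9.57% at 18 nt and 7.79% at 19 to 21 nt, and were led by G with 45.0% and 44.6%. So the longest set shared its low U with the other predicted sequences, while its A was higher than the 28.7% and 35.9% of the shorter sets. The 4 sequences that began with U were novel79_mature (45 counts), novel371_mature, novel404_mature and novel499_mature.

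Weighted by counts, the first base was A in 60.4%, G in 31.7%, C in 4.61% and U in 3.29% of the counts of the 63. Of known miRNA counts, 67.6% began with U. By cow, A was first in 60.3%, 80.1% and 71.4% of the counts on the control diet and in 35.3%, 61.4% and 53.0% on the replacement diet. The lowest value, that of replacement cow 1, lies beside its single count of novel153_mature, a sequence that begins with A, and the diets overlapped between control cow 1 and replacement cow 2. These shares follow the leading sequences, since novel387_mature and novel153_mature begin with A and novel12_mature with G.

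**Figure D3:**
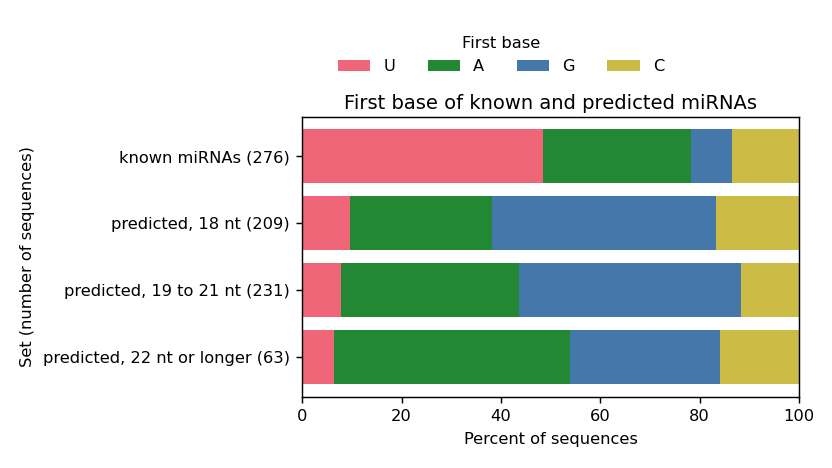
Percent of sequences (x axis) that begin with U, A, G or C in the known miRNAs and in the 3 length classes of predicted sequences (y axis, with the number of sequences). U leads the known miRNAs with 48.6% and is under 10% in each predicted class, and A leads the class of 22 nt or longer with 47.6%.

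The ends of the sequences were alike as well. The last base was C in 38 of the 63 (60.3%), against 12.7% of known miRNAs, 37.3% of predicted sequences of 18 nt and 41.6% of those of 19 to 21 nt. The last 3 bases were GCC or GGC in 23 (36.5%), against 1.81%, 16.7% and 15.6%. At the other end, 15 (23.8%) began with AGA, against 2.90%, 13.9% and 14.3%. Either of these ends was found in 32 sequences, which held 77.8% of the counts, and both in 6, novel387_mature and novel130_mature among them. These letters were picked after the sequences had been seen, so the shares are a description.

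Base composition separated known from predicted sequences more than it separated predicted lengths. The median GC content of the 63 was 66.7%, against 45.8% for known miRNAs and 66.7% and 68.4% for the predicted sequences of 18 and of 19 to 21 nt. The median purine content (A and G) was 64.0%, against 50.0%, 61.1% and 68.4%. A seed of A and G alone was found in 10 of the 63 (15.9%), novel153_mature and novel224_mature among them, and in 1.09% of known miRNAs.

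The A box, the internal promoter element that lies near the start of tRNA genes and is kept in the tRNA, was searched by its consensus on the written strand. It was found in 1 of the 63, novel18_mature, at bases 8 to 18, shown in capitals.
novel18_mature: gggggtgTGGCTCAGTGGtagagtg
The share with an A box was 1.59%, against 0.362% of known miRNAs, 9.09% of predicted sequences of 18 nt and 2.16% of those of 19 to 21 nt. A match describes letters and does not show where the RNA came from.

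A seed match to a known miRNA was found for 8 of the 63 (12.7%). The 8 matched 10 known miRNAs and held 131 counts, 7.19% of the counts of the set. The share was 2.87% for predicted sequences of 18 nt and 3.90% for those of 19 to 21 nt, and 34.8% of known miRNAs shared a seed with another known miRNA. The 3 most abundant matches are shown with their known partners, with the shared seed in capitals.
novel130_mature: aGAGGGGCcagagcccagggagcc
bta-miR-423-5p: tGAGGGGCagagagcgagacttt
novel55_mature: aGGTTCCTctgtccttccccct
bta-miR-23b-5p: gGGTTCCTggcatgctgattt
novel427_mature: aAAACCGGaatgaattttttga
bta-miR-2285k: aAAACCGGaatgaactttttg
With novel130_mature (43 counts) and bta-miR-423-5p (30061 counts) the shared run was the 7 bases of the seed, the first base differed and the whole sequences were 10 edits apart, where an edit is a base changed, added or removed. The same seed stood in bta-miR-11971 (11 counts, 8 edits). For novel55_mature (42 counts) and bta-miR-23b-5p (58 counts) the distance was 11 edits. In novel427_mature (23 counts) the likeness to bta-miR-2285k (96 counts) ran over 14 bases from the same first base, with 2 edits in all.

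Apart from novel427_mature, 1 other seed match ran over 14 bases. It was novel523_mature, with 1 count in replacement cow 2, which was 2 edits from bta-miR-2285n (31 counts) and 1 edit from bta-miR-2285bc (182 counts), whose seed differs. Capitals mark the longest run shared with bta-miR-2285bc.
novel523_mature: aaaaacccGAATGACCCTTTTGG
bta-miR-2285bc: aaaaacctGAATGACCCTTTTGG
Both close matches thus fell to the miR-2285 family, a large family of ruminant miRNAs with many near-identical copies, in which the assignment of a read to a copy is uncertain. Another sequence, novel439_mature with 1 count, was 4 edits from bta-miR-2285ak-5p. The remaining seed matches were novel445_mature with bta-miR-28 and bta-miR-708, novel309_mature with bta-miR-2443, novel451_mature with bta-miR-12034 and novel469_mature with bta-miR-669. Each of these 4 had 3 to 8 counts in 1 cow, a first base unlike that of its partner and a distance of 10 to 13 edits.

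The counts of novel427_mature were 0, 8 and 1 in control cows 1 to 3 and 13, 1 and 0 in replacement cows 1 to 3. Those of novel55_mature were 5, 0 and 0, then 12, 0 and 25. No diet held either sequence in all 3 cows. With the start shifted by up to 1 base, 17 of the 63 matched a known seed. Among the other predicted sequences, 21 of the 63 shared a seed with a shorter one, led by novel224_mature with 7 and novel109_mature with 6, and 7 of these 21 seeds held A and G alone. A seed found in neither a known miRNA nor a shorter predicted sequence was left in 37.

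The opposite strand of a known miRNA was found once. The first 20 bases of novel398_mature are the reverse complement of the first 20 bases of bta-miR-24-3p, an abundant miRNA of many tissues, and capitals mark this stretch.
novel398_mature: GTTCCTGCTGAACTGAGCCAgt
bta-miR-24-3p: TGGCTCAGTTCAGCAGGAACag
In human, by general knowledge, miR-3074 lies opposite a miR-24 hairpin. The counts of novel398_mature were 1, 10 and 13 in control cows 1 to 3 and 1, 4 and 0 in replacement cows 1 to 3, which made it the only one of the 63 with counts in 5 cows. Those of bta-miR-24-3p were 187, 450 and 169, then 521, 421 and 74. Replacement cow 3, the cow with 0 counts of novel398_mature, had the fewest counts of bta-miR-24-3p, whereas replacement cow 1, with 1 count, had the most.

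Both arms of a hairpin were listed for 18 predicted hairpins, of which 2 held a sequence of the 63. They are shown with the span that pairs in the computed duplex in capitals.
novel387_mature: agAATTCCATGGACAgaggagcc
novel387_star: cagactacAGTTCATGGGGTCacaa
novel330_mature: aCCCCATGGATTGTAGCT
novel330_star: agaGAGTATTGGAGTGGGTtgcc
The arms of novel387 formed 11 base pairs with a computed energy of -14.6 kcal/mol, and those of novel330 10 base pairs with -7.30 kcal/mol. In the 13 known hairpins with both arms listed the median was 18 base pairs and -22.2 kcal/mol, and 7 of the 13 had overhangs of 1 to 3 bases at both 3′ ends. Over the 18 predicted hairpins the medians were 13 base pairs and -16.8 kcal/mol, and 0 of the 18 had such overhangs. The mature arm of novel387 had 409 counts in 6 cows and its star arm 18, which lay in control cow 1 (12 counts) and control cow 3 (6). The arms of novel330 differed in their cows, since the 18-nt mature arm had 158 counts in 6 cows (45, 31, 20, 31, 30 and 1) and the 23-nt star arm 25 counts, all in replacement cow 2.

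The diets were compared to ask whether the replacement feed changed the miRNA content of milk EVs. None of the 63 was called in a fit that tested it, but the main fit tested only 5 of them. In the edgeR quasi-likelihood fit over the whole table, 227 sequences passed the filter on low counts and 0 were called at a Benjamini-Hochberg adjusted p under 0.05 (0% of those tested). An unadjusted p under 0.05 was found for 8 of the 227, which is 3.52%. Of the 63, 5 passed the filter, and 0 of these 5 had an adjusted or an unadjusted p under 0.05. On simulated counts this fit called 5 of 40 sequences changed by 3 on the log2 scale, so a sequence that was not called may still differ. With DESeq2, 7 of 390 sequences were called (1.79%) and 0 of the 15 of this length that received an adjusted p. With no filter in edgeR, 15 of 779 were called (1.93%) and 0 of the 63.

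The 4 sequences seen in all cows are given in full, beginning with the most abundant. The levels of novel387_mature were 3.89, 6.99 and 6.60 RPM in control cows 1 to 3 and 2.69, 6.59 and 5.71 RPM in replacement cows 1 to 3. Replacement cow 1 and control cow 1 were lowest, and the diets overlapped. The means were 5.83 ± 1.69 and 4.999 ± 2.05 RPM (SD, n = 3 each, two-sided exact permutation p = 0.5), and the log2 fold change of replacement over control was -0.40 ± 0.75 (SE, edgeR adjusted p = 0.986). Scaled by library size alone the log2 fold change was 0.31, so its direction depends on the scaling.

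The GC-only sequence novel12_mature had 2.52, 1.11 and 2.25 RPM in control cows 1 to 3 and 6.51, 2.97 and 6.50 in replacement cows 1 to 3. Each replacement cow lay above each control cow, and the gap was narrow, between control cow 1 and replacement cow 2. The means were 1.96 ± 0.748 and 5.33 ± 2.04 RPM (SD, n = 3 each), a ratio of replacement over control of 2.71, with a two-sided exact permutation p = 0.1, the smallest that 3 cows against 3 allow. The edgeR log2 fold change was 1.08 ± 0.90 (SE, edgeR adjusted p = 0.986), and 1.71 with library size alone. Of the 192 sequences with counts in all cows, 18 had replacement cows all higher without overlap (9.38%), and 1 of the 4 of this length was among them. The separation depended on the total: scaled by all miRNA counts the diets did not overlap and the ratio of means was 3.24, whereas scaled by known miRNA counts (2.02), by all counts without the dominant 18-nt sequence (1.99) or by the TMM library sizes of edgeR (2.10) the diets overlapped. These scalings were chosen after the values had been seen.

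Stretches of novel12_mature stood in shorter predicted sequences as well. There were 23 that shared a run of at least 13 bases with it or lay within 4 edits, with 1141 counts against its own 280, so reads of 1 RNA could be divided among several rows. Examples are shown with the longest run shared with novel12_mature in capitals.
novel80_mature: GGCGGGCGGGCGGGGCCGGa
novel89_mature: GGCGGGCGGGCGGGGCCGa
novel126_mature: gtGGGCGGGCGGGGCCGcc
The counts of novel126_mature, the most abundant of the 23, were 72, 19 and 58 in control cows 1 to 3 and 103, 48 and 107 in replacement cows 1 to 3. The summed level of the 23 was 12.9, 4.45 and 11.7 RPM in control cows 1 to 3 and 19.7, 13.8 and 27.0 in replacement cows 1 to 3. As with novel12_mature itself, control cow 2 was lowest and the diets did not overlap, with means of 9.70 ± 4.58 and 20.1 ± 6.61 RPM (SD, n = 3 each). Of the 23, 6 had counts in all cows. Scaled by known miRNA counts the ratio of means was 1.58, against 2.08 in RPM, and the diets overlapped, as they did by the TMM library sizes (1.61). In the edgeR fit the log2 fold changes were 0.39 ± 0.87 for novel126_mature and 0.57 ± 1.04 for novel80_mature (SE). They were 1.55 ± 1.79 for novel240_mature and -0.22 ± 1.24 for novel11_mature (SE), and none was called. The 23 were chosen for their likeness to novel12_mature after its values had been seen, and they are not independent of it. No test was made of the 23 together.

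For novel153_mature the levels were 2.52, 4.53 and 3.14 RPM in control cows 1 to 3 and 0.0748, 2.97 and 3.09 in replacement cows 1 to 3. Replacement cow 1, with 1 count against 33 to 57 in the other 5, stood apart from the rest, and the other 2 replacement cows lay within the control range. The means were 3.40 ± 1.03 and 2.04 ± 1.71 RPM (SD, n = 3 each, two-sided exact permutation p = 0.4), and the log2 fold change was -0.81 ± 1.26 (SE, edgeR adjusted p = 0.986). Its size depended on the fit, with -0.25 without replacement cow 1, -0.12 with library size alone, -1.58 with the replicate block and -2.24 with limma-voom, none past the threshold.

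The lowest of the 4, novel18_mature, had 0.535, 0.795 and 0.483 RPM in control cows 1 to 3 and 0.299, 0.0824 and 0.159 in replacement cows 1 to 3. Each replacement cow lay below each control cow, with 4, 1 and 2 counts against 7, 10 and 6. The means were 0.604 ± 0.167 and 0.180 ± 0.110 RPM (SD, n = 3 each, two-sided exact permutation p = 0.1, the smallest possible), a ratio of replacement over control of 0.298. Of the 192 sequences with counts in all cows, 12 had replacement cows all lower without overlap (6.25%), and 1 of the 4 of this length was among them. The diets did not overlap under the other 4 totals either, with ratios of 0.238 to 0.375. Pooled over cows, 23 counts on the control diet and 7 on the replacement diet gave a ratio of 0.304. Its 95% interval, 0.110 to 0.733, covers counting error only and leaves out differences between cows, so it is no test of the diets. Of the 3 replacement cows, 2 were at or under the limit of 3 counts. The sequence did not pass the filter on low counts of the edgeR fit. Where it was fitted, it was not called, with a log2 fold change of -1.88 ± 1.54 in DESeq2 (SE, adjusted p = 0.617) and of -1.91 ± 3.61 in edgeR without the filter (SE, adjusted p = 0.805).

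**Figure D4:**
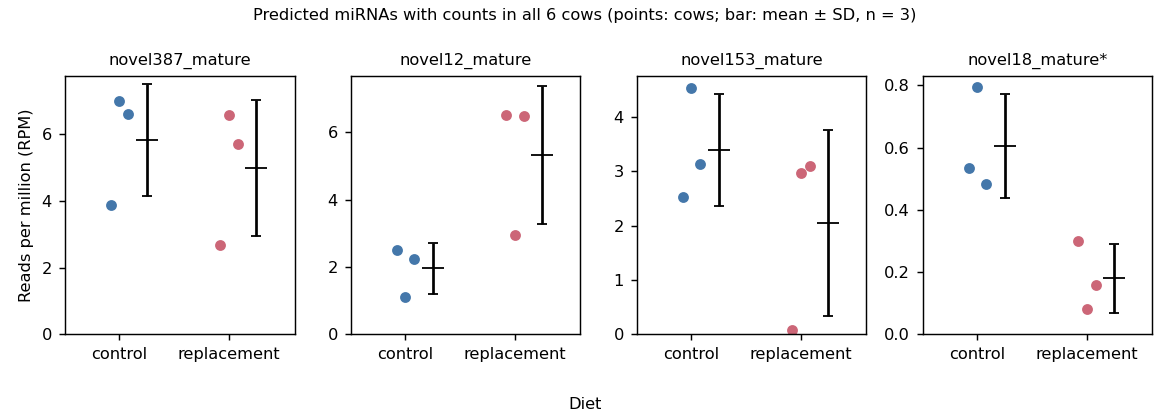
RPM (y axis, linear, from 0 in each panel) of the 4 predicted miRNAs of 22 nt or longer with counts in all 6 cows, by diet (x axis); points are cows and bars the mean ± SD, n = 3, and the asterisk marks a row with 2 names. The diets do not overlap for novel12_mature, where the replacement diet is higher, and for novel18_mature, where it is lower.

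The other 2 sequences in the edgeR fit, novel224_mature and novel130_mature, had 0 counts in control cow 2 and in replacement cows 1 and 3. The log2 fold changes were -2.28 ± 2.25 and -1.62 ± 2.13 (SE, edgeR adjusted p = 0.986 for both), so each error was as wide as its estimate or nearly so. Replacement cow 2 alone carried both on the replacement diet, and without it the fits gave -8.30 and -6.77, values that rest on a group at 0 and are no measure of size. Without control cow 3, the cow with the most counts of both, they were -1.50 and -0.72, with library size alone -1.46 and -0.80, and with the replicate block -5.38 and -3.94. Neither had an adjusted p under 0.05 in any of the 17 fits tried, nor did novel12_mature, novel153_mature or novel387_mature.

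**Figure D5:**
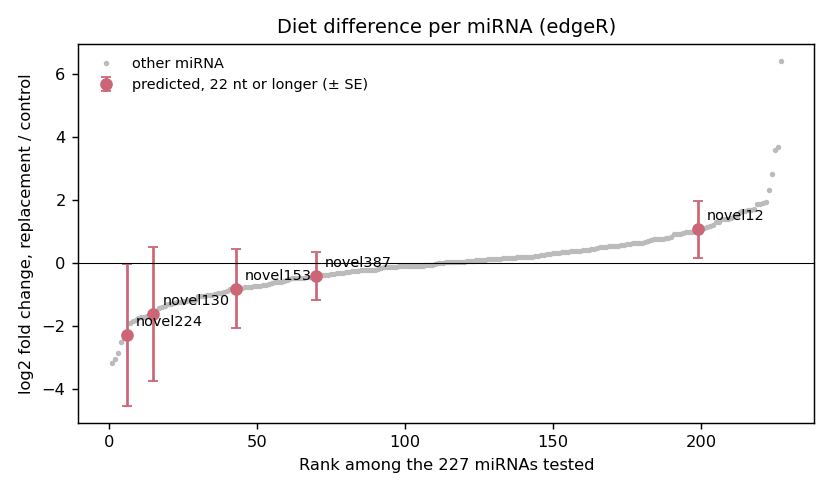
The log2 fold change of replacement over control from edgeR (y axis) for the 227 sequences tested, in order of its value (x axis, rank); the 5 predicted miRNAs of 22 nt or longer are the large points, with bars of ± 1 SE. The 5 range from -2.28 to 1.08, and the bars of 3 of them reach across 0.

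Among the rest, the larger values lay mostly in 1 cow. The 35 counts of novel109_mature lay in replacement cow 3 (32) and control cow 3 (3).
novel109_mature: gGAAGGGGaggactgggcctggc
It is shown because, with novel280_mature and novel375_mature, it held part of the high count of replacement cow 3, the cow with the fewest of the 63. The counts of novel422_mature were 2, 8 and 0 in control cows 1 to 3 and 17, 0 and 0 in replacement cows 1 to 3. None of these sequences had counts in 2 replacement cows.

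Over the whole table there were 271061 to 556489 miRNA counts per cow, beside totals of 12130660 to 13369168 reads that underlie RPM. Cows of the same diet differed by a chi-square of 63.2 to 223 per degree of freedom, so no pair looked like copies of the same library. Of the miRNAs listed for milk's likely cells, all 9 of mammary epithelium were in the table, 4 of them in all cows. Their summed level was 900 to 3123 RPM on the control diet and 1237 to 3191 on the replacement diet. That list included bta-miR-26a, which the paper ranks highest in cow milk EVs. The share of each miRNA in the sum is not given here, so the sum is no measure of epithelial RNA alone. Red blood cell miRNAs (6 of 6 in the table, 5 in all cows) summed to 587 to 988 and 603 to 858 RPM, and leukocyte miRNAs (7 of 7, 6 in all cows) to 87.4 to 304 and 121 to 178 RPM. Each list overlapped between diets.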

How the data were processed

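Reads had been trimmed with Cutadapt (version 1.14 per the submitters' processing notes, which also list Bowtie and the build ARS-UCD1.2) and mapped to the cow genome. Rfam and BLAST served to discard other RNA classes, miRBase to name known miRNAs and miRDeep2 to predict the rest. The authors deposited whole-number read counts per mature miRNA without normalization, with sequence and length. They deposited the same values as RPM under the name TPM, and these equal each count divided by 1 total per cow. The counter and its treatment of strand and multiply matching reads are not given in the sources used here. A further deposited table with the authors' fold changes and p-values was not used. All columns of values were matched to a cow by name.

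Diets were compared with edgeR 4.0.16 in R 4.3.3 over all sequences (TMM scaling, filterByExpr at its defaults, quasi-likelihood F test, calls at a Benjamini-Hochberg adjusted p under 0.05), and repeated with DESeq2 1.42.0 and with limma 3.58.1. The methods state no test between diets. The labels give each sample as a cow of its own. The fit was tested on simulated counts at the dispersion of these data. Of 40 sequences changed by 3 on the log2 scale that passed the filter, it called 5 and gave 39 the right sign, and of 180 unchanged ones it called 0, so changes of that size are mostly missed. Single values were compared by a two-sided exact permutation test over cows (scipy 1.17.1), and shares given 95% Wilson intervals. Duplexes were computed with RNAduplex of ViennaRNA 2.7.2, edits and shared runs with Python 3.11.15 (numpy 2.4.6, pandas 2.3.3), and plots with matplotlib 3.10.9.

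The members, lists and rules were chosen with earlier results of these data known. The rule named the 15 members of highest mean RPM, up to 5 members per direction with an unadjusted p under 0.05, up to 10 with a known seed, up to 10 within 2 mismatches of a known sequence or within a RefSeq hairpin, members identical to another row and up to 3 of the longest. A hairpin sequence table was not used here, so that part was not run, and 1 member that the rule names is not reported here. Other names, among them novel330_star, novel347_mature, novel232_mature, novel366_mature, novel371_mature, novel404_mature, novel422_mature, novel439_mature, novel499_mature, the shorter relatives of novel12_mature and bta-miR-24-3p, were chosen after their values were seen. Alternatives covered tools, scalings, filters, detection limits, seed definitions, totals, a replicate block and each cow left out.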

Additional observations from a re-analysis of the deposited data

How the results depend on the processing

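None of the 63 predicted miRNAs of 22 nt or longer was called under any of the 16 alternative fits. Most of these fits, however, held only 5 to 8 of the 63, so the rest could not be called there. DESeq2 gave an adjusted p to 15 of them, and edgeR without the filter tested all 63. Collapsing identical sequences repeated the reported fit, since each sequence was distinct. Over all sequences, 0 were called by edgeR as reported, 7 by DESeq2, 15 without the filter on low counts and 0 to 1 with each cow left out (1 without control cow 2 and 1 without control cow 3). Cow numbers are shared by the diets but the labels do not make pairs of them. Cows of the same number correlated by -0.11, -0.16 and 0.18 in their deviations from the diet means, and the replicate block gave 0 calls. The log2 fold change of novel387_mature turned from -0.40 to 0.31 with library size alone, a scaling that moved the median of all sequences from 0.03 to 0.63, and its ratio of means from 0.858 in RPM to 1.23 per all miRNA counts. The mean share of the set rose from 0.0882% to 0.349% of known miRNAs plus the set and to 0.182% without the dominant 18-nt sequence, by construction of the total. Sequences in all cows fell from 4 to 2 with at least 3 and again to 2 with at least 10 counts required per cow. Among the 4 that began with U, 1 had at least 10 counts and 0 were in all cows. Seed matches numbered 17 with the start shifted by up to 1 base and 3 of at least 10 counts, against 8. Low counts limit most values, since 31 of the 63 had under 10 counts in all and 58 did not pass the edgeR filter.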
